A study of Homo sapiens with 4 samples.

Results

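The BCL2 family was followed through 10 genes of the deposited table, which lists 20348 genes in all. They were taken as the rows whose Ensembl identifier belongs to BCL2, BCL2L1, MCL1 and BCL2A1 (anti-apoptotic members), BAX and BAK1 (effectors), and BCL2L11, BMF, BBC3 and PMAIP1 (BH3-only members). The samples were K562, an established human line of chronic myeloid leukemia, and THP-1, an established human line of acute monocytic leukemia. Each line was kept for 72 h either in 100 nM periplocin, a plant cardiac glycoside, or in the solvent DMSO. The controls are blank by title but DMSO by library name and in the methods. PolyA RNA was sequenced from 1 library per condition, 4 libraries in all, and the methods state a single biological replicate. A line stands for 1 source of leukemia cells, and 1 library per condition gives no spread between replicates, so no difference within a line has a replicate check.

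Proteins of the BCL2 family decide whether the outer mitochondrial membrane stays intact. BAX and BAK1 open pores in it and release cytochrome c, which starts the caspase cascade, and the anti-apoptotic members hold BAX and BAK1 in check. BH3-only proteins bind the anti-apoptotic members and some also activate the effectors, so the balance between the groups sets how close a cell is to apoptosis. In blood cells BCL-xL, made from BCL2L1, is known for keeping erythroid cells alive, while BCL2 and MCL1 are the drugged survival proteins of acute myeloid leukemia. Much of this balance is set at the protein level, by binding, phosphorylation and turnover, which RNA counts do not measure.

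Total counts were between 16381149 and 20622694 per library, and the share on mitochondrially encoded genes was between 2.07% and 5.62%, lowest in K562 periplocin. Values are given as CPM, the counts scaled to a common library total, and fold changes within a pair of libraries are after TMM scaling. The ± after a log2 value and the 95% intervals come from counts alone and cover counting error only. A gene was called higher or lower when it differed at least 2-fold and had a mean of at least 1 CPM in the pair. In bulk RNA, fewer cells of a kind and less RNA per cell cannot be told apart. By flow cytometry at this dose and time, the paper reports more apoptotic cells and fewer cells in S phase in both lines. The part of this in the RNA values was not tested. The labelled lines carried their own markers. The 10 erythroid markers listed for K562 summed to 2257 CPM in K562 DMSO and 9036 CPM in K562 periplocin, against 17.5 to 25.6 CPM in THP-1. The 10 myeloid markers listed for THP-1 summed to 2196 to 2286 CPM in THP-1 and 78.3 to 93.4 CPM in K562. GYPB was at 0 in both THP-1 libraries, HBG2 in THP-1 periplocin, and CLEC12A and MPO in both K562 libraries. In K562, 8 of the 10 erythroid markers were at least 2-fold higher with periplocin, and the part of this shift in the K562 results was not tested.

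Promoter sequence is shown for BCL2L11 and BMF, the members that rose in K562, and for BCL2L1, the member that differed most between the untreated lines. The RefSeq promoter table for GRCh38.p14 held 9 of the 10 members with 11 start sites, each as 300 bases from 250 before to 50 after the start. MCL1 has no entry in it. Only bases outside every exon annotated in GENCODE release 29 are printed, read 5′ to 3′ on the strand of the gene.
BCL2L11, chr2:111120664-111120913, plus strand: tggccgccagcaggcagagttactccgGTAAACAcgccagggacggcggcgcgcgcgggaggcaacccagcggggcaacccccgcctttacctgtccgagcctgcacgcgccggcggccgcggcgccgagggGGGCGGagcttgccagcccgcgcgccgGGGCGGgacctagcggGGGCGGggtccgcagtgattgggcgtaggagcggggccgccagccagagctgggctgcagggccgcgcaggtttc
BMF, chr15:40108893-40109129, minus strand: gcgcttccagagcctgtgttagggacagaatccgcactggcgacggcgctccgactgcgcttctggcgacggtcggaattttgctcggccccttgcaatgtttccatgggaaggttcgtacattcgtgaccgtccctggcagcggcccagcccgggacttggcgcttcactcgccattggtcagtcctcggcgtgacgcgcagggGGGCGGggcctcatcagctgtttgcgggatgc
BCL2L1, chr20:31723990-31724213, minus strand: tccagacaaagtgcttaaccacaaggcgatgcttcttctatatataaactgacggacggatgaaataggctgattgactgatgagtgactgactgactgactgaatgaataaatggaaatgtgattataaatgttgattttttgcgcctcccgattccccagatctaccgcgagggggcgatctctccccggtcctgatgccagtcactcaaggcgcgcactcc
Capitals mark matches to the FOXO motif TGTTTAC or the GC box GGGCGG on either strand. The motifs searched were these, the E-box CACGTG, the CRE TGACGTCA, the AP-1 motif TGANTCA, the MYB motif TAACNG and the STAT motif TTCNNNGAA, and they were chosen after the expression values were seen. The FOXO match of BCL2L11, read as GTAAACA on this strand, was the only FOXO match among the 11 member windows, and 3.42% of 35116 RefSeq promoters hold that motif. GC boxes stood in 3 copies in the BCL2L11 stretch and 1 in the BMF stretch. Over the whole 300 base windows there were 3 for BCL2L11 and 2 for this start site of BMF, and 45.0% of all promoters hold one. Members that did not pass 2-fold in either line also held them, with 4 for PMAIP1, 2 for BAX and 2 for BAK1. BCL2L1 and BMF each have another start site in the table, not printed here, with 1 GC box in that window of BCL2L1 and 0 in that of BMF. None of the motifs searched was in the BCL2L1 stretch shown, and none in the window of BCL2, which is not printed because exons cover its upstream bases. The 300 base window of BAX held 4 E-box matches and that of BBC3 held 1, against 7.26% of all promoters with any. BBC3 also held 1 AP-1 match (7.71% of all promoters with any) and BCL2A1 held 1 STAT match (7.66%). A match describes letters only and says nothing about what binds there.

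In DMSO the lines differed in the survival genes they expressed. BCL2 was 9.86-fold higher in THP-1 than in K562, and BCL2L1 was 11.4-fold lower, with MCL1 close in both. Of the 9 members with a mean of at least 1 CPM, 3 were at least 2-fold higher in THP-1 (BCL2, BAK1 and BMF), where 22.8% of 12845 genes were, and 3 were at least 2-fold lower (BCL2L1, BBC3 and PMAIP1), where 21.1% of genes were. Their median log2 difference was 0.32, against 0.02 for all genes. The BH3-only gene BBC3, which encodes PUMA, was 6.35-fold lower in THP-1 (log2 difference -2.67 ± 0.15), and PMAIP1, which encodes NOXA, was 2.16-fold lower (-1.11 ± 0.07). BAK1 was 2.29-fold higher (1.20 ± 0.09) and BMF 2.23-fold higher (1.16 ± 0.16) in THP-1. The 95% intervals of BMF (0.85 to 1.48) and PMAIP1 (-1.25 to -0.97) reach inside 2-fold. The remaining members stayed within 2-fold between the untreated lines, with log2 differences of 0.32 ± 0.03 for MCL1, -0.39 ± 0.09 for BAX and 0.58 ± 0.06 for BCL2L11.

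**Figure D1:**
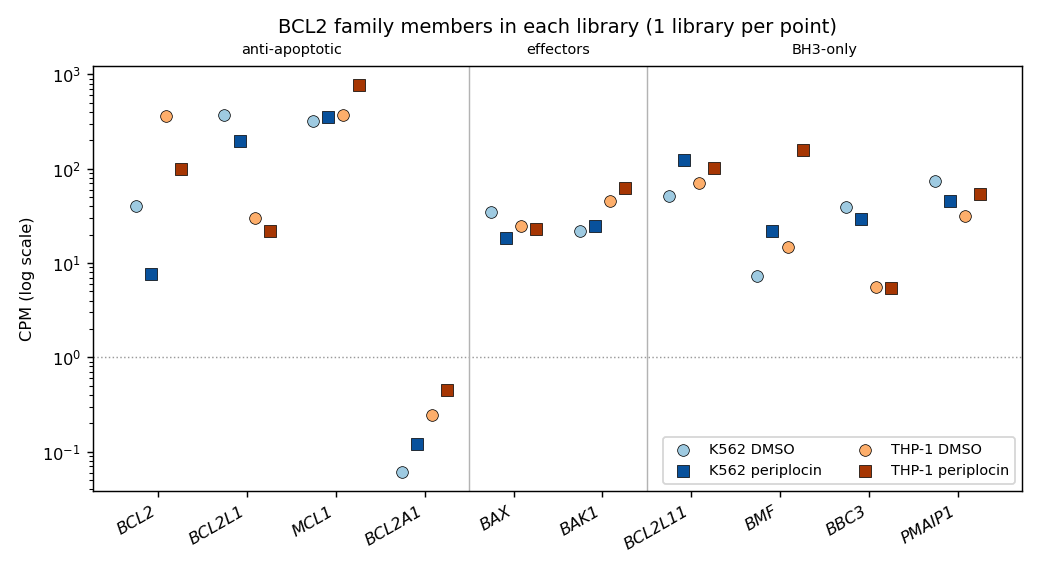
CPM of the 10 members in each of the 4 libraries, on a log axis, with 1 point per library and the members grouped by role; the dotted line marks 1 CPM. BCL2 is lower with periplocin in both lines, BMF is higher in both, and BCL2A1 lies under 1 CPM everywhere.

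Under periplocin, BCL2 was lower and BMF higher in both lines, while BCL2L11 passed 2-fold in K562 and not in THP-1, and MCL1 in THP-1 and not in K562. Whether the lines differ was not tested for any member, since the differences between responses carry counting error only. In K562, 2 of 9 members were higher (BCL2L11 and BMF), against 8.84% of 11862 genes, and 1 was lower (BCL2), against 11.6%. In THP-1, 2 of 9 were higher (MCL1 and BMF), against 8.03% of 12341 genes, and 1 was lower (BCL2), against 10.5%. The median log2 fold change of the 9 members was -0.42 in K562 and 0.47 in THP-1, where the median over all genes was -0.01 and -0.02. With BCL2A1 included the K562 median was -0.14 and the THP-1 median 0.50. These are counts over few genes, and they describe the family without setting it apart from other genes.

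BCL2 (ENSG00000171791) is the founding survival gene of the family and the target of venetoclax. The gene spans 63123346 to 63320128 of chromosome 18 (GRCh38, as for all positions here), minus strand. K562 had 659 counts (40.2 CPM) in DMSO and 128 (7.73 CPM) in periplocin, and THP-1 had 7520 (365 CPM) and 1756 (99.1 CPM). THP-1 was the higher line in either condition, and even its periplocin library lay above the untreated K562 library. BCL2 fell 5.24-fold in K562 (log2 fold change -2.39 ± 0.14, 95% interval -2.68 to -2.12) and 3.65-fold in THP-1 (-1.87 ± 0.04, -1.94 to -1.79). These values stood at percentile 1.63 of the genes measured in K562 and at percentile 2.28 in THP-1. The difference between the responses, THP-1 minus K562, was 0.52 ± 0.14 on the log2 scale.

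BCL2L1 (ENSG00000171552; chromosome 20, 31664452 to 31723989, minus strand) encodes BCL-xL and, by another splice site, the pro-apoptotic BCL-xS. The counts are per gene, so the splice forms of BCL2L1, MCL1 and BCL2L11, which differ in function, cannot be told apart. BCL2L1 had 6050 and 3272 counts in K562 DMSO and periplocin, or 369 and 198 CPM, and 615 and 383 in THP-1, or 29.8 and 21.6 CPM. Both K562 libraries were above both THP-1 libraries. Its log2 fold change was -0.91 ± 0.03 in K562 (1.88-fold lower) and -0.45 ± 0.09 in THP-1 (1.37-fold lower), each within 2-fold. In K562 the lower BCL2L1 library is the one with the higher sum of erythroid markers.

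MCL1 (ENSG00000143384; chromosome 1, 150574551 to 150579738, minus strand) encodes a survival protein with a short half-life that is controlled largely by its degradation. K562 had 5243 counts (320 CPM) in DMSO and 5916 (357 CPM) in periplocin, and THP-1 had 7573 (367 CPM) and 13703 (773 CPM). The THP-1 periplocin library stood above the other 3, which lay close together. MCL1 rose 2.12-fold in THP-1 (log2 fold change 1.09 ± 0.02, 95% interval 1.05 to 1.13), near the threshold, and its value in K562 was 0.15 ± 0.03 (0.09 to 0.20). The response was larger in THP-1 by 0.94 ± 0.03. BCL2A1 (ENSG00000140379; chromosome 15, 79960889 to 79971446, minus strand), an NF-κB target that encodes BFL-1, had 1 count in DMSO and 2 in periplocin in K562, and 5 and 8 in THP-1. It was under 1 CPM in all 4 libraries and is left out of counts and medians, except where named as included or where no filter was used. The sums per length include it. The interval of its log2 fold change was -3.29 to 6.86 in K562 and -0.89 to 2.87 in THP-1, so a change was not detectable at this depth.

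**Figure D2:**
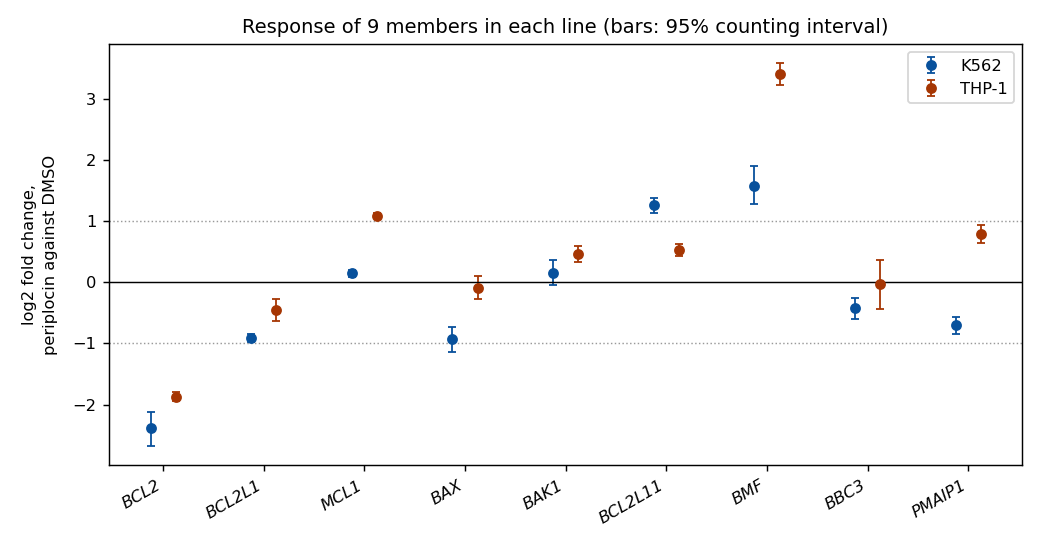
Log2 fold change of 9 members, periplocin against DMSO, in K562 and THP-1 (1 library per condition), with bars for the 95% counting interval and dotted lines at a 2-fold change. BCL2 is below the lower line and BMF above the upper line in both, BCL2L11 is above it in K562 alone, and MCL1 in THP-1 alone.

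Levels of different genes were compared per length, as CPM per kb of the longest coding transcript in GENCODE release 29. Summed over BCL2, BCL2L1, MCL1 and BCL2A1, the anti-apoptotic transcripts came to 228 CPM per kb in DMSO and 168 in periplocin in K562, and to 154 and 219 in THP-1. BCL2L2, a further survival gene, is outside this sum. It had 35.5 and 43.5 CPM in K562 DMSO and periplocin, and 38.0 and 51.0 in THP-1. The make-up of the sum differed between lines and with treatment. In K562 DMSO the largest part was BCL2L1, with 62.0% of the sum, followed by MCL1 with 35.6% and BCL2 with 2.36%. In K562 periplocin the shares were 45.1% for BCL2L1, 54.2% for MCL1 and 0.618% for BCL2. In THP-1 DMSO the shares were 60.7% for MCL1, 31.8% for BCL2 and 7.42% for BCL2L1, which became 89.9%, 6.07% and 3.79% under periplocin. The share of MCL1 was thus higher, and that of BCL2 and BCL2L1 lower, with periplocin in either line. That direction was the same with the median length of the coding transcripts in place of the longest, but the order was not. With the median length BCL2L1 stayed ahead of MCL1 in K562 periplocin, at 68.3% against 31.1%. BCL2A1 made up at most 0.2% in any library.

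**Figure D3:**
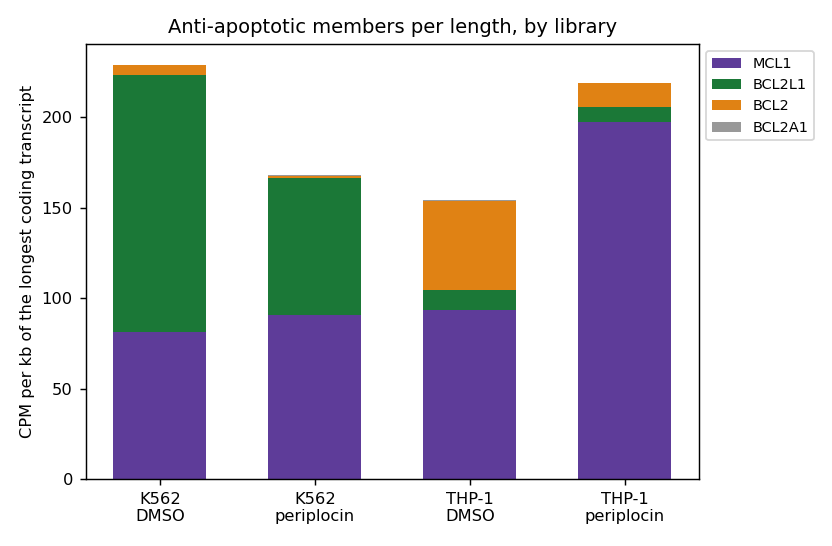
Stacked levels of the 4 anti-apoptotic members in each library, in CPM per kb of the longest coding transcript, with 1 library per bar. BCL2L1 is the largest block in K562 DMSO and MCL1 the largest in the THP-1 libraries, and the BCL2 block of THP-1 shrinks from 48.9 to 13.3 CPM per kb.

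Ratios within a library do not depend on its scaling. The ratio of BCL2 to MCL1 was 5.81-fold lower with periplocin in K562 (log2 change -2.54 ± 0.14) and 7.75-fold lower in THP-1 (-2.95 ± 0.04). The ratio of BCL2L1 to MCL1 was 2.09-fold lower in K562 (-1.06 ± 0.04) and 2.91-fold lower in THP-1 (-1.54 ± 0.10). Both ratios moved the same way in the lines, although MCL1 itself passed 2-fold in THP-1 alone.

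The effectors stayed within 2-fold of DMSO in both lines. BAX (ENSG00000087088; chromosome 19, 48954815 to 48961798, plus strand), which moves from the cytosol to mitochondria to form pores, had 570 and 304 counts in K562 DMSO and periplocin, or 34.8 and 18.4 CPM, and 504 and 403 in THP-1, or 24.4 and 22.7 CPM. Its lowest library was K562 periplocin, and the others lay between 22.7 and 34.8 CPM. The log2 fold change was -0.93 ± 0.10 in K562 (1.91-fold lower, 95% interval -1.14 to -0.73), an interval that reaches past 2-fold, and -0.09 ± 0.10 in THP-1 (-0.28 to 0.10). BAK1 (ENSG00000030110; chromosome 6, 33572547 to 33580293, minus strand), the effector that resides on mitochondria, had 355 and 405 counts in K562, or 21.7 and 24.5 CPM, and 943 and 1110 in THP-1, or 45.7 and 62.6 CPM. Both THP-1 libraries were above both K562 libraries. Its log2 fold change was 0.16 ± 0.10 in K562 (-0.05 to 0.37) and 0.47 ± 0.06 in THP-1 (0.34 to 0.59). The ratio of BAX to BAK1 was 2.14-fold lower with periplocin in K562 (log2 change -1.10 ± 0.15) and 1.47-fold lower in THP-1 (-0.56 ± 0.12). The ratio of BCL2 to BAX was 2.75-fold lower in K562 (-1.46 ± 0.17) and 3.42-fold lower in THP-1 (-1.78 ± 0.10).

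BMF had the largest rise of any member in each line. BMF (ENSG00000104081; chromosome 15, 40087890 to 40108892, minus strand) encodes a BH3-only protein that is tethered to the cytoskeleton and released when cells lose attachment or are stressed. K562 had 118 counts (7.20 CPM) in DMSO and 360 (21.7 CPM) in periplocin, and THP-1 had 305 (14.8 CPM) and 2774 (157 CPM). The THP-1 periplocin library stood far above the other 3. BMF rose 2.99-fold in K562 (log2 fold change 1.58 ± 0.15, 95% interval 1.28 to 1.90; percentile 96.4) and 10.7-fold in THP-1 (3.41 ± 0.09, 3.24 to 3.59; percentile 99.5). The response was larger in THP-1 by 1.83 ± 0.18 on the log2 scale.

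BCL2L11 (ENSG00000153094; chromosome 2, 111119378 to 111168447, plus strand) encodes BIM, which binds every anti-apoptotic member and can activate BAX directly. It had 840 and 2049 counts in K562 DMSO and periplocin, or 51.3 and 124 CPM, and 1452 and 1789 in THP-1, or 70.4 and 101 CPM. Both periplocin libraries were above both DMSO libraries. BCL2L11 rose 2.39-fold in K562 (log2 fold change 1.26 ± 0.06, 95% interval 1.14 to 1.38), and its value in THP-1 was 0.53 ± 0.05 (0.43 to 0.63), or 1.45-fold higher. The order of the lines was thus the reverse of that for BMF, with a response difference of -0.73 ± 0.08.

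PMAIP1 and BBC3 are BH3-only genes best known for their induction by cell stress. NOXA, from PMAIP1 (ENSG00000141682; chromosome 18, 59899948 to 59904306, plus strand), chiefly binds MCL1. PMAIP1 had 1205 and 754 counts in K562 DMSO and periplocin, or 73.6 and 45.5 CPM, and 645 and 950 in THP-1, or 31.3 and 53.6 CPM. K562 DMSO was its highest library and THP-1 DMSO its lowest, with the periplocin libraries in between. The log2 fold change was -0.70 ± 0.07 in K562 (95% interval -0.84 to -0.57) and 0.79 ± 0.07 in THP-1 (0.64 to 0.94), so the values lay on opposite sides of 0, each within 2-fold. PUMA, from BBC3 (ENSG00000105327; chromosome 19, 47220822 to 47232766, minus strand), binds all the anti-apoptotic members. BBC3 had 637 and 484 counts in K562, or 38.9 and 29.2 CPM, and 116 and 97 in THP-1, or 5.62 and 5.47 CPM. Both K562 libraries were above both THP-1 libraries, and the log2 fold change was -0.42 ± 0.09 in K562 (-0.60 to -0.25) and -0.03 ± 0.20 in THP-1 (-0.43 to 0.37).

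Per length, PMAIP1 was the largest part of the BH3-only sum in K562 DMSO, with 53.7%, and BMF the smallest, with 2.19%. The sum covers BCL2L11, BMF, BBC3 and PMAIP1 only. Outside it are BAD, BIK and HRK, with counts given below, and BID. BID had 42.7 and 28.4 CPM in K562 DMSO and periplocin, and 59.5 and 62.1 in THP-1. BMF made up 6.86% of that sum in K562 under periplocin, while in THP-1 it made up 8.83% in DMSO and 40.1% under periplocin, where it was the largest part. The share of BCL2L11 was 14.0% in DMSO and 35.0% under periplocin in K562, and 37.7% and 23.2% in THP-1. With the median length the shares of BCL2L11 were 29.7% and 51.0% for K562 and 50.8% and 19.7% for THP-1, and those of BMF were 9.47% and 20.3% for K562 and 24.2% and 69.4% for THP-1, with the same directions at other levels. The BH3-only sum was 70.3 CPM per kb in DMSO and 67.6 under periplocin in K562, and 35.7 and 83.2 in THP-1. With the median transcript length these sums were 113 and 159 for K562 and 91.1 and 336 for THP-1, so in K562 the direction turned with the length chosen. Against the anti-apoptotic sum of the same library this came to 30.8% and 40.3% for K562 and to 23.2% and 38.0% for THP-1. With median transcript lengths the same shares were 22.7% and 50.4% for K562 and 44.0% and 131% for THP-1, so the periplocin library was higher in each line under either length while the level itself depended on the length chosen. Taken pairwise, the ratio of BCL2 to BCL2L11 was 12.6-fold lower with periplocin in K562 (log2 change -3.65 ± 0.15) and 5.28-fold lower in THP-1 (-2.40 ± 0.06). The ratio of BCL2 to BMF was 15.7-fold lower in K562 (-3.97 ± 0.21) and 38.9-fold lower in THP-1 (-5.28 ± 0.10). The ratio of BCL2L11 to MCL1 was 2.16-fold higher in K562 (1.11 ± 0.07) and 1.47-fold lower in THP-1 (-0.55 ± 0.05), opposite in direction.

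**Figure D4:**
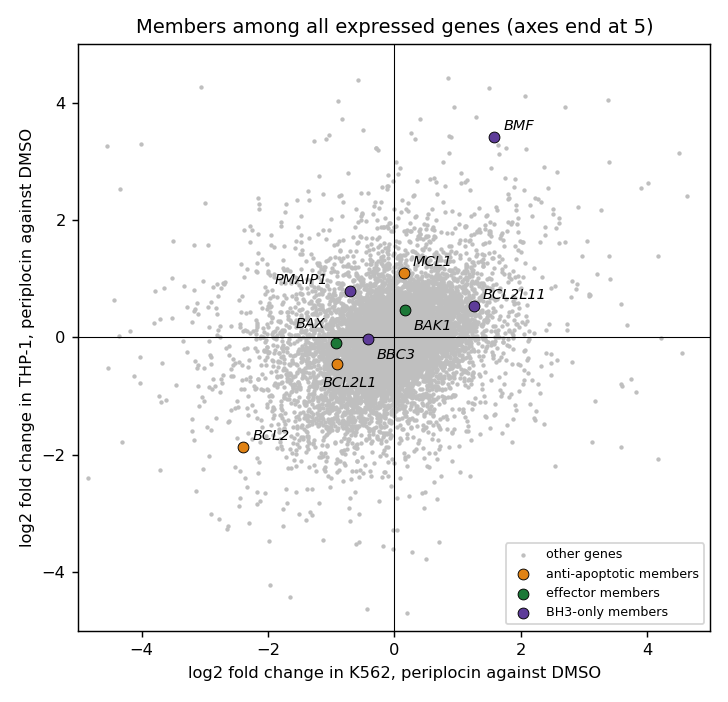
Log2 fold change with periplocin in K562 (x axis) and THP-1 (y axis), with 1 grey point per expressed gene and the 9 members coloured by role. BCL2 lies at the lower left and BMF at the upper right edge of the cloud, and PMAIP1 alone of the members lies clearly below 0 in K562 and above 0 in THP-1.

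To ask which members moved alike in both lines, the 4 libraries were fitted together with line and treatment as terms, so that the disagreement between the lines serves as the error on 1 residual degree of freedom. In edgeR's quasi-likelihood test 0 of 9 members and 0% of 13584 genes passed a Benjamini-Hochberg adjusted p of 0.05, and 3 members (BCL2, BMF and BCL2L11) and 1535 genes had an unadjusted p under 0.05. BCL2 had a shared log2 fold change of -2.11 (adjusted p = 0.359, edgeR), BMF of 2.53 (adjusted p = 0.359) and BCL2L11 of 0.90 (adjusted p = 0.388). DESeq2 with the same terms called 2 of 9 members, where it called 1.06% of 11740 genes. These were BCL2 (log2 fold change -2.10, adjusted p = 1.25e-05) and BMF (2.53, adjusted p = 0.00525), each in the same direction in both lines. BCL2L11 was not called by DESeq2 (adjusted p = 0.330). The calls therefore rest on the tool, and the p-values measure how far 2 lines differ, not the spread between cultures.

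Of the 13 other genes of the family, 0 of the 8 expressed in K562 were higher (8.84% of all genes) and 1 lower (11.6%), and the median of their log2 fold changes was -0.16. In THP-1 1 of 9 was higher (8.03% of all genes) and 1 lower (10.5%), with a median of -0.23. Counts this small cannot be set apart from those shares. BCL2L13, a mitochondrial receptor for mitophagy, fell in K562 from 2394 to 1061 counts (log2 fold change -1.20), and in THP-1 it had 1885 and 949 counts (-0.76). BCL2L12 was close to the threshold in both lines, with 715 and 373 counts in K562 (-0.96) and 485 and 211 in THP-1 (-0.97). BNIP3L, the mitophagy receptor that clears mitochondria from maturing red cells, rose in THP-1 from 679 to 1202 counts (1.05), and it had 1568 and 2836 counts in K562 (0.83). BIK, a BH3-only gene, fell in THP-1 from 457 to 191 counts (-1.03) and had 1 and 2 counts in K562. HRK, a BH3-only gene best known in neurons, had 19 counts in K562 DMSO and 0 in K562 periplocin, at least 6.45-fold lower against a floor of 3 counts per library, and was at 0 in THP-1. The survival gene BCL2L2 had 581 and 720 counts in K562 (0.28) and 784 and 904 in THP-1 (0.44). BAD, a BH3-only gene held inactive by survival signals, had 179 and 282 counts in K562 (0.63) and 234 and 157 in THP-1 (-0.35). BID, which links death receptors to mitochondria, had a log2 fold change of -0.60 in K562 and 0.07 in THP-1, BOK of -0.93 and -0.15, and BNIP3, a mitophagy receptor, of 0.34 and -0.23, all within 2-fold. BCL2L10 had at most 4 counts in a library, BCL2L15 at most 22, and BCL2L14 was at 0 in all 4.

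Genes downstream of the mitochondrial pore, from APAF1 and cytochrome c to the caspases, stayed within 2-fold with 1 exception. Of 13, 1 was higher in K562 (8.84% of all genes) and 0 in THP-1 (8.03%), 0 were lower in either line (11.6% and 10.5%), and the medians were -0.09 and 0.07. ENDOG, a mitochondrial nuclease, rose in K562 from 189 to 395 counts (log2 fold change 1.04) and had 157 and 124 in THP-1 (-0.11). Of 6 expressed inhibitor of apoptosis genes, 2 were higher in K562 and 1 in THP-1, against the same 8.84% and 8.03%. In either line 0 were lower (11.6% and 10.5% of all genes), and the medians were 0.25 and 0.45. BIRC3, which encodes the NF-κB target cIAP2, rose in both lines, where K562 had 52 and 142 counts (1.42) and THP-1 had 59 and 133 (1.40). BIRC5, which encodes survivin, rose in K562 from 1121 to 2295 counts (1.01) and had 1336 and 1440 in THP-1 (0.34). The 95% intervals of ENDOG (0.78 to 1.29), BIRC5 (0.90 to 1.11) and BIRC3 (0.96 to 1.91) in K562 reach inside 2-fold. So does that of BIRC3 in THP-1 (0.95 to 1.87). The 9 ligase, deubiquitinase and kinase genes that control the MCL1 protein were all within 2-fold, with medians of 0.06 and 0.19. The voltage-dependent anion channels of the outer membrane, of which VDAC2 is a partner of BAK1, were likewise within 2-fold, with log2 fold changes of -0.06, -0.09 and -0.07 for VDAC1, VDAC2 and VDAC3 in K562 and -0.30, -0.30 and -0.54 in THP-1.

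Genes of growth arrest and the stress response moved both ways. In K562, 4 of 16 expressed were higher (8.84% of all genes) and 3 lower (11.6%), with a median of -0.28. In THP-1, 6 of 19 were higher (8.03%) and 3 lower (10.5%), with a median of 0.42. CDKN1A, the cell cycle inhibitor p21, fell in K562 from 825 to 386 counts (log2 fold change -1.12) and rose in THP-1 from 500 to 2308 (2.44). TNFRSF10B, the death receptor DR5, fell in K562 from 1463 to 373 counts (-2.00) and rose in THP-1 from 873 to 1588 (1.09). SESN2, a stress-induced regulator of mTORC1, fell in K562 from 6525 to 1556 counts (-2.09) and had 621 and 748 in THP-1 (0.50). TP53INP1, which takes part in autophagy, rose in both lines. K562 had 635 and 1761 counts (1.44), and THP-1 had 125 and 447 (2.07). PERP fell in THP-1 from 974 to 220 counts (-1.92) and was at the floor in K562, with 3 counts or fewer. The remaining calls were rises of TP53I3 (1.04), BTG2 (1.12) and CCNG1 (1.07) in K562, and in THP-1 rises of BTG2 (1.91), FAS (1.21) and ZMAT3 (1.03) and falls of FDXR (-1.81) and AEN (-1.30), named after their values were seen.

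Among 23 transcription factors known to act on BCL2 family genes, 22 were expressed in each line. In K562 2 were higher (8.84% of all genes) and 3 lower (11.6%), with a median of 0.11, and in THP-1 3 were higher (8.03%) and 1 lower (10.5%), with a median of 0.21. JUN, a part of AP-1 that can induce BCL2L11, rose in both lines. K562 had 1029 counts in DMSO and 2505 in periplocin (log2 fold change 1.26), and THP-1 had 151 and 554 (2.10). MYC, which lowers the threshold for apoptosis, fell in THP-1 from 5889 to 1024 counts (-2.29) and had 5322 and 2889 in K562 (-0.91). MITF, a known activator of BCL2 in pigment cells, rose in THP-1 from 160 to 539 counts (1.98) and had 696 and 521 in K562 (-0.44). RUNX1 fell in K562 from 2855 to 770 counts (-1.92) and had 5217 and 4468 in THP-1 (0.01). STAT5A, a regulator of BCL2L1 in erythroid cells that is active downstream of BCR-ABL, fell in K562 from 12851 to 3800 counts (-1.78) and had 408 and 352 in THP-1 (0.02). STAT5B, also on the list and named after its values were seen, did not fall in K562. It had 5491 and 6861 counts there (0.29) and 1551 and 1531 in THP-1 (0.21). The remaining calls, named after their values were seen, were FOXO4 and MYB. FOXO4, of the FOXO family that induces BCL2L11, rose in both lines, with 425 and 1070 counts in K562 (1.31) and 162 and 294 in THP-1 (1.09). Its 95% interval in THP-1 (0.81 to 1.38) reaches inside 2-fold. FOXO1 and FOXO3, also on the list and named after their values were seen, were within 2-fold. Their values were 0.43 and 0.29 in K562 and 0.84 each in THP-1, so both were larger in THP-1, unlike those of FOXO4 and BCL2L11. MYB, a known activator of BCL2, fell in K562 from 8071 to 2592 counts (-1.67), and THP-1 had 12669 and 5441 (-0.99).

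**Figure D5:**
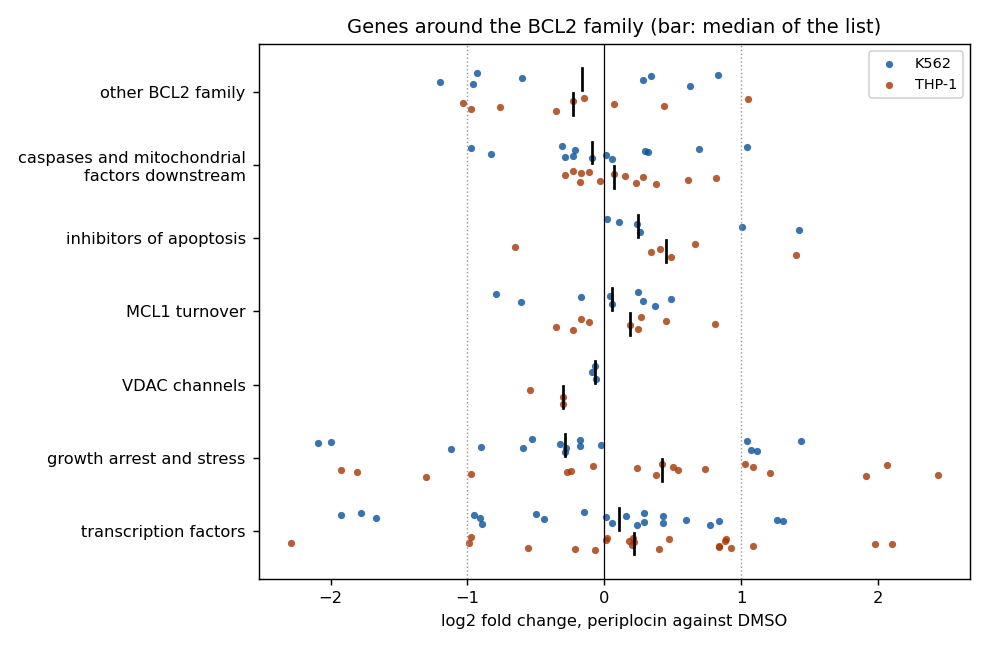
Log2 fold change with periplocin of the genes around the family (x axis), with 1 point per expressed gene, 1 row per list, K562 in blue above THP-1 in brown, black bars at the medians and dotted lines at a 2-fold change. The medians of all 7 lists lie between -0.30 and 0.45, and the widest spreads are in the growth arrest and transcription factor lists.

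The genes whose pattern over the 4 libraries was most like that of BCL2 were ONECUT2, COTL1 and PYGL. Likeness was the Euclidean distance over 3 log2 values (the response in K562, the response in THP-1 and the difference between the DMSO libraries) among 8048 genes. ONECUT2, at a distance of 0.71, had 658 counts in DMSO and 186 in periplocin in K562, and 6387 and 1959 in THP-1. COTL1 followed at 1.25 and PYGL at 1.32. For BMF the nearest were ABAT at 1.59, CD53 at 1.71 and YPEL3 at 1.83, each with a smaller response in THP-1 than that of BMF. The log2 fold change of ABAT was 1.94 in each line, that of CD53 was 1.22 in K562 and 2.06 in THP-1, and that of YPEL3 was 1.80 and 1.97.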

How the data were processed

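Poly-A RNA of K562 and THP-1 cells (1 library each for DMSO and periplocin) was sequenced as paired-end reads, on the T7 platform per the methods and on an Illumina instrument per the labels. The authors deposited expected counts by gene for each library without normalization or pooling, and 87.4% to 88.3% of the values per library, zeros included, are exactly whole as written. The labels name HISAT2, StringTie 1.3.1 and hg38, without saying what each did, and the annotation, the counting program and the use of strand are not given in the sources used here. In GENCODE release 29 genes on the other strand overlap BCL2, BCL2L1, BCL2L11, BMF, BAK1 and BBC3, and genes on the same strand overlap BCL2, MCL1 and BBC3. The table lists none of them, and reads they share with a member could not be told apart.

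Members and gene lists were chosen with earlier results of these data known. Expected counts were rounded to whole numbers. Each pair of libraries was scaled by TMM in edgeR 4.0.16 (R 4.3.3), log2 fold changes used a prior count of 0.125, and 95% intervals were exact Clopper-Pearson intervals on the pair of counts. A gene was called at 2-fold or more if its pair averaged 1 CPM or more, without a p-value. The joint fits took genes that reached 10 counts in 2 or more libraries, by edgeR's quasi-likelihood test and by DESeq2 1.42.0, with Benjamini-Hochberg adjustment, and DESeq2 gave no adjusted p for 1844 genes. Lengths and positions came from GENCODE release 29 (GRCh38) and promoters from RefSeq (GRCh38.p14). Python 3.11.15 with pandas 2.3.3, scipy 1.17.1 and matplotlib 3.10.9 was used for the rest. The joint fits and the calls were first run on simulated data. There both lines shared the same treatment effect, and the pairs for the 2-fold rule held counting error only. That run therefore says nothing about the spread between cultures.

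Named were all members and other family genes, from each further list the 5 with the largest change past 2-fold in pairs averaging 5 CPM or more, every gene of a list of 3 or fewer, and for BCL2 and BMF the 3 nearest genes among those averaging 10 CPM or more in both lines. The genes so marked in the text were named outside this rule after their values were seen. A gene of the growth arrest and stress list is not reported here. Alternatives were other scalings, filters, prior counts, fold thresholds and transcript lengths.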

Additional observations from a re-analysis of the deposited data

Results flagged for a closer look

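For 8 named genes the log2 fold changes of the lines lay on opposite sides of 0, each with a counting interval clear of 0. Whether the lines differ was not tested, since each condition has 1 library and the intervals cover counting error only. Among BH3-only genes, the log2 fold change of PMAIP1 was higher in THP-1 than in K562 by 1.49 (0.79 against -0.70). That of BAD differed by -0.97 (-0.35 against 0.63). The mitophagy gene BNIP3 differed by -0.57 (-0.23 against 0.34). Of the growth arrest and stress genes, CDKN1A differed by 3.56 (2.44 against -1.12), TNFRSF10B by 3.09 (1.09 against -2.00), SESN2 by 2.59 (0.50 against -2.09) and ZMAT3 by 1.56 (1.03 against -0.53). MITF, a transcription factor, differed by 2.43 (1.98 against -0.44).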

How the results depend on the processing

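No replicate could be left out and no spread between replicates estimated, because each condition has 1 library. Under other scalings, a minimum of 5 CPM, no filter, and the requirement that the whole counting interval lie past 2-fold, 3 members were called in each line. Between the DMSO libraries 6 were called (38.7% to 44.6% of all genes), but 7 with no filter (52.5%), which adds BCL2A1. Under the interval requirement 4 were called (36.9% of all genes), since BMF and PMAIP1 do not meet it. No log2 difference of the 9 members moved by more than 0.13 or changed sign over 108 alternatives of scaling and prior count. In the DMSO comparison, total counts moved the median of all genes by -0.12 and total counts without mitochondrial genes by -0.13. At 1.5-fold, 6 members were called in K562 (41.0% of all genes), 4 in THP-1 (38.5%) and 6 between the DMSO libraries (61.7%). At 4-fold, 1 was called in K562 (4.75%), 1 in THP-1 (4.05%) and 3 between the DMSO libraries (25.0%). These counts moved with the threshold itself. DESeq2 called 2 members across both lines where edgeR called 0, and the cause was not tested.

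With median transcript lengths, the shares of the anti-apoptotic sum were 1.6% for BCL2, 80.7% for BCL2L1 and 17.6% for MCL1 in K562 DMSO, and 0.488%, 68.3% and 31.1% in K562 periplocin. In THP-1 they were 35.2%, 15.8% and 48.9% in DMSO, and 7.69%, 9.19% and 82.9% in periplocin. BCL2A1, with at most 8 counts, could not be read at this depth.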
